A study of Mus musculus with 8 samples.

Results

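The genes described here are 10 genes of the growth response. They are the AP-1 genes Fos, Fosb, Fosl1, Fosl2, Jun, Junb and Jund, of which several are immediate early genes, with the immediate early genes Egr1, Ier2 and Myc. They were taken by symbol, and each matched 1 row in both deposited tables, so that they are 10 of 52338 genes in the table of the ginsenoside Re experiment and 10 of 52139 in the table of the ginseng berries concentrate (GBC) experiment. All 8 libraries hold RNA sequencing of wild type cells that the labels call C2C12, which is a mouse myoblast line that grows without limit. The Re table holds 3 libraries of cells given ginsenoside Re, a saponin of ginseng, and 3 libraries of cells given DMSO, the solvent control. The GBC table holds 1 library of cells given GBC and 1 of cells given DMSO. The labels used here give no dose, treatment time or serum condition, and do not say whether libraries came from separate cultures, so p-values measure only the spread between these libraries.

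Immediate early genes are transcribed by factors that already stand ready in the cell when a growth factor, stress or change of medium activates ERK, JNK or p38 kinases, and most of their mRNAs are short-lived. Fos and Jun proteins pair through a leucine zipper and bind as AP-1. Jun proteins can pair with each other, Fos proteins need a Jun partner, and Fosl1 and Fosl2 (Fra-1 and Fra-2) are the slower, longer-lasting members that lack the strong activation domain of Fos. Egr1 is a zinc finger factor induced with Fos, Ier2 encodes a small nuclear protein of the same early wave, and Myc binds DNA with its partner Max and drives growth and ribosome production. In cultured myoblasts high AP-1 and Myc activity goes with proliferation, and both Jun and Myc can hold back MyoD.

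Values are TPM, a level per gene length, set relative to the total of the library, that can be compared between genes of 1 library. Over all listed genes TPM added up to 704657 to 743269 in Re libraries and 642180 to 716589 in DMSO libraries of the Re table, and to 479938 in the GBC library and 403442 in its DMSO library. The read depth is unknown. Of 7 myoblast markers, Myod1 was at 9.95 to 13.6 TPM in Re and 11.9 to 12.6 TPM in DMSO, Myf5 at 32.4 to 34.2 and 30.2 to 32.7 TPM, and Des at 115 to 123 and 116 to 127 TPM. Cdh15 was at 12.8 to 15.2 TPM in Re and 13.6 to 17.5 TPM in DMSO. Pax7 was near 0 in the Re table too, at 0 to 0.02 TPM in Re and 0 to 0.13 TPM in DMSO, so it does not set the tables apart. In both libraries of the GBC table Myod1, Myf5, Cdh15 and Pax7 were listed at 0, the 7 markers summed to 1.67 TPM in GBC and 1.98 TPM in DMSO, and Thy1, a mesenchymal surface protein, was at 22.1 and 23.8 TPM, while in the Re table Thy1 was at 0 to 0.08 TPM in Re and at 0 in DMSO. The same list of 8 fibroblast markers held genes of either direction. Col3a1 was higher in the Re table, at 225 to 271 TPM in Re and 178 to 266 TPM in DMSO. In the GBC table Col3a1 was at 39.3 TPM in GBC and 19.8 TPM in DMSO. Pdgfrb was higher in the Re table too. Pdgfra was lower there, like Thy1, at 1.85 to 3.07 TPM in Re and 1.95 to 2.53 TPM in DMSO. In GBC Pdgfra was at 9.84 TPM, and in its DMSO library at 5.85 TPM. Col1a1 lay above its range in the Re table in GBC and below it in that DMSO library. Col1a2 lay within its range in the Re table in GBC and below it in that DMSO library. Dcn and Lum were near 0. The list summed to 511 to 534 TPM in Re and 399 to 553 TPM in DMSO, and to 350.1 TPM in GBC and 174 TPM in its DMSO library. The defining markers of myoblasts are thus absent from the GBC pair, whose libraries are named by their treatment below. Leukocyte, endothelial and epithelial markers summed to at most 3.20 TPM per list in every library.

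To show the control regions of the genes at the low and high ends of the series, the 250 bases before the annotated start are printed for 3 of them, from RefSeq on GRCm38.p6, 5′ to 3′ on the strand of the gene. Entries matched 6 of the 10 genes: Fos, Fosb, Fosl2, Jun, Junb and Jund. Capitals mark TGACG, the core of the cAMP response element, and TATAAA.
Fos, chr12:85473640-85473889, plus strand: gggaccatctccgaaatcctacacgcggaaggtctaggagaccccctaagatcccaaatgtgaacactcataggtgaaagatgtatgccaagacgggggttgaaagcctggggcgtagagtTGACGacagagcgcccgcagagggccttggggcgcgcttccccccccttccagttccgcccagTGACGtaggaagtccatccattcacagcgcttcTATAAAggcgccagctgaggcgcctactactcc
Fosb, chr7:19310046-19310295, minus strand: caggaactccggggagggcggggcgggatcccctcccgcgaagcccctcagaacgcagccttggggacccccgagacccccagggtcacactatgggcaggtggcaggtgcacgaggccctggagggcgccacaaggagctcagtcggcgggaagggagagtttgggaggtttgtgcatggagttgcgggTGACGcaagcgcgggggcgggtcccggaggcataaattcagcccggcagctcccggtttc
Junb, chr8:84978749-84978998, minus strand: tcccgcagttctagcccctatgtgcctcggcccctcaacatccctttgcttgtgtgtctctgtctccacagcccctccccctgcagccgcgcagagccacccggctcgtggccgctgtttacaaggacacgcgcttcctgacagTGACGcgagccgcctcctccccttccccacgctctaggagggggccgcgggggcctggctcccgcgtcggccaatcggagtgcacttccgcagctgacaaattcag
Both strands were searched, and positions are counted back from the start site. TGACG was found in the windows of Fos (at -129 and -66), Fosb (at -60) and Junb (at -106) and in no window of Fosl2, Jun or Jund, while 17.8% of 32851 promoter windows of the same length hold it. TATAAA was found in Fos, at -33, and in 12.4% of all windows. The EGR motif GCGNGGGCG, which overlaps the GC box GGGCGG, was found in Fosb at -50 and in Fosl2 at -79, against 4.7% of all windows. GGGCGG itself was found in Fos, Fosb, Fosl2 and Jun (32.7% of all windows) and CCAAT in Jun and Junb (33.8%). The AP-1 site TGANTCA (6.75% of all windows), the full response element TGACGTCA (1.55%), the E-box CACGTG (6.02%) and the CArG box (1.47%) were found in no window of these 6 genes. Only these exact letters were matched, so a variant such as TGACATCA, which lies in the Jun window, was not counted. Sequence beyond the 250 bases and the other members, Egr1 among them, were not searched. No match here therefore does not show that a promoter lacks the element. A match of letters is not a bound site.

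In the Re table the levels were led by the Jun genes, and the classical early responders Fos and Fosb were the lowest. In Re libraries Junb averaged 91.0 ± 2.46 TPM, Jund 56.8 ± 4.18, Jun 39.6 ± 2.83 and Myc 38.4 ± 8.58 TPM, and in DMSO libraries 87.5 ± 9.05, 51.4 ± 6.84, 37.8 ± 0.383 and 37.6 ± 2.33 TPM (SD, n = 3 each). Fosl1 and Fosl2 followed at 30.1 ± 7.07 and 21.8 ± 1.71 TPM in Re and 30.5 ± 4.71 and 20.3 ± 2.97 TPM in DMSO, then Ier2 at 15.5 ± 2.55 TPM in Re and 15.6 ± 1.71 TPM in DMSO, and Egr1. The order of the means was the same in both groups. Neighbours whose values overlapped were Jun with Myc in both groups, Myc with Fosl1, Fosl1 with Fosl2, and Fos with Fosb in Re, and Fosl2 with Ier2 in DMSO. In the GBC library Fosl1 came first, at 26.8 TPM, before Junb at 20.2 TPM, and in the DMSO library of that table Junb came first, and Egr1, at 0.42 TPM, lay below Fos, at 0.46 TPM. The plot of levels by gene shows these orders.

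**Figure D1:**
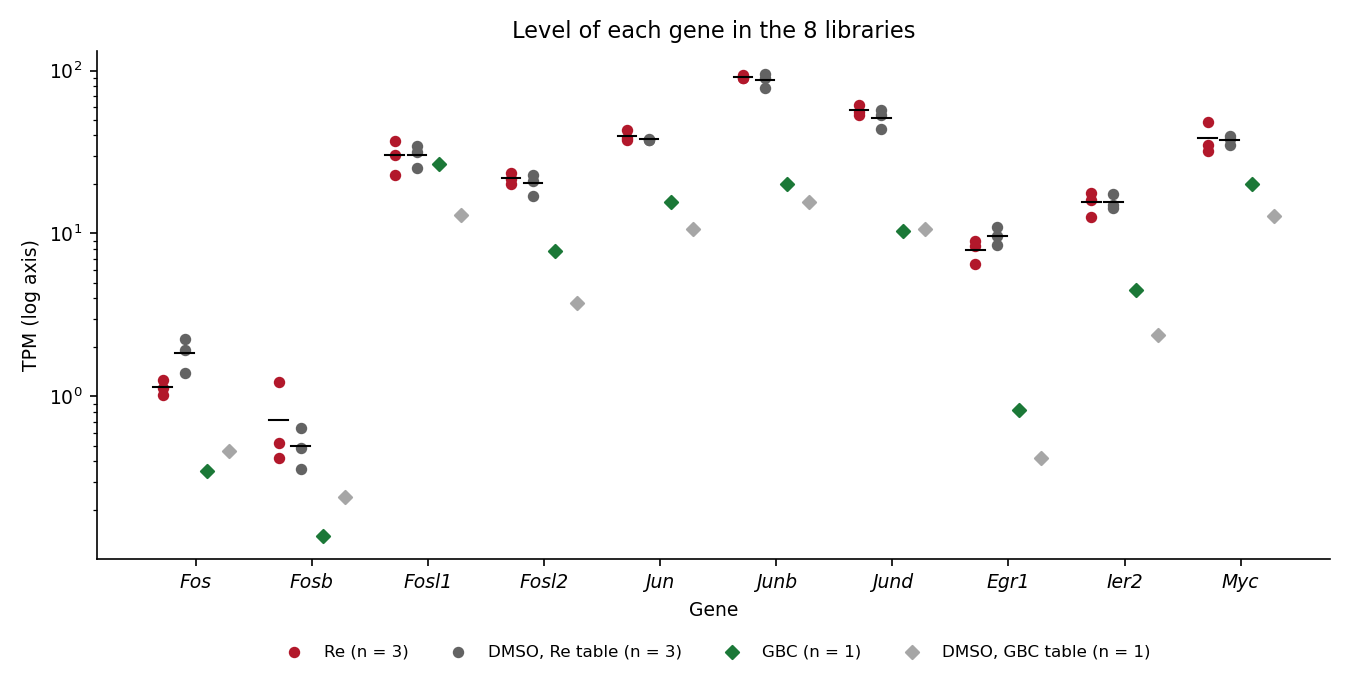
TPM on a log axis for each gene in the 8 libraries, with points for libraries and black bars for means of groups of 3. Fos lies at 1.02 to 1.27 TPM in Re and 1.39 to 2.24 TPM in DMSO, and every gene is lower in both libraries of the GBC table than its mean in the Re table.

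Re against DMSO was asked over all genes whose mean across the 6 libraries reached 1 TPM, by limma on log2(TPM + 1), with Benjamini-Hochberg adjustment over 11967 genes. No gene of the set was called: 0 of the 9 tested had an adjusted p under 0.05, beside 0% of all tested genes, and 0 of 9 had an unadjusted p under 0.05, beside 6.23% of all, made up of 5.65% higher and 0.577% lower in Re. Limma with robust variances gave 0 members on both counts, with 6.08% of all genes at an unadjusted p under 0.05. Limma without trend called 0 members too, and there Fos alone had an unadjusted p under 0.05, at 0.0200, beside 6.12% of all genes. The smallest adjusted p of any tested gene was 0.687. Fosb, at a mean under 1 TPM, was not tested.

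Fos had the largest difference of the set. Fos (ENSMUSG00000021250) was at 1.13, 1.27 and 1.02 TPM in the Re libraries, against 1.92, 2.24 and 1.39 TPM in the DMSO libraries. All 3 Re values lay below all 3 DMSO values, and the means stood at a ratio of 0.616. The difference was -0.40 on the log2(TPM + 1) scale, with a 95% confidence interval of -0.84 to 0.03 and an adjusted p of 0.687 in limma, so it did not pass the threshold. At such low levels the pseudocount of 1 holds the difference down, and with a pseudocount of 0.1 it was -0.63. Fos was the only 1 of the 9 tested members whose groups did not overlap; lower values in all Re libraries were seen in 1.27% of all tested genes, higher values in all of them in 13.7%, and separation either way in 15.0%. The whole table leaned upward in Re: the median difference of all tested genes was 0.105, and 77.5% of them were higher. An exact permutation test of 3 against 3 libraries cannot go below p = 0.10. In bulk RNA fewer cells that express a gene and less RNA per cell cannot be told apart.

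Egr1 (ENSMUSG00000038418), a factor that like Fos is induced through serum response elements, was at 6.48, 8.43 and 8.97 TPM in Re and 9.60, 8.50 and 10.9 TPM in DMSO. Only the Re value of 8.97 crossed the lowest DMSO value, that of DMSO replicate 2. The difference was -0.26, with an interval of -0.60 to 0.09 and an adjusted p of 0.687. With the libraries scaled by median of ratios, which brings the median of all genes to -0.001, Egr1 was at 6.38, 8.19 and 8.29 in Re and 9.38, 9.54 and 11.2 in DMSO, in scaled TPM. These groups no longer overlapped, the difference was -0.36, and its adjusted p in limma was 0.963. Scaled so, 2 of the 9 tested members, Fos and Egr1, lay lower in all Re libraries, as did 4.96% of all tested genes, while 10.2% were separated either way. Both members also had an unadjusted p under 0.05 on that scale, of 0.0412 for Fos and 0.0249 for Egr1, as did 4.70% of all tested genes.

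Fosb, the close relative of Fos, was the lowest of the 10 genes. It was at 0.42, 1.22 and 0.52 TPM in Re and 0.48, 0.36 and 0.64 TPM in DMSO. One library, Re replicate 2, held the high value, and the other Re values lay inside the range of DMSO.

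Fosl1 (ENSMUSG00000024912), which encodes Fra-1, was at 23.0, 30.2 and 37.1 TPM in Re and 31.7, 25.3 and 34.5 TPM in DMSO. The Re values spanned those of DMSO, and the difference was -0.04 (95% interval -0.46 to 0.39). Fosl1 had the widest spread between libraries of 1 group among the 9 tested members, with a residual SD of 0.285 on the log2(TPM + 1) scale, rank 1895 of 11967 genes from the widest. Fosl2, which encodes Fra-2, was at 20.2, 21.5 and 23.6 TPM in Re and 22.9, 17.0 and 21.0 TPM in DMSO, differing by 0.10 on the log2(TPM + 1) scale (95% interval -0.19 to 0.40).

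The 3 Jun genes, which encode the partner that a Fos protein needs, were close between Re and DMSO. Jun was at 37.6, 38.5 and 42.9 TPM in Re and 37.7, 37.5 and 38.2 TPM in DMSO, differing by 0.06 on the log2(TPM + 1) scale (95% interval -0.14 to 0.27). Its DMSO values lay within a narrow band and Re replicate 3 stood above them. Its residual SD of 0.0706 was the lowest of the tested members and lay at rank 11270 from the widest of all tested genes. Junb was at 89.7, 93.8 and 89.5 TPM in Re and 95.4, 77.7 and 89.5 TPM in DMSO, differing by 0.06 on the log2(TPM + 1) scale (95% interval -0.16 to 0.28). Jund, the member expressed without a stimulus in most cells, was at 53.1, 56 and 61.4 TPM in Re and 53.6, 43.8 and 56.9 TPM in DMSO, differing by 0.15 on the log2(TPM + 1) scale (95% interval -0.12 to 0.42).

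Ier2 and Myc had centres near 0. Ier2 was at 16.1, 12.7 and 17.7 TPM in Re and 17.5, 14.3 and 14.9 TPM in DMSO, differing by -0.01 on the log2(TPM + 1) scale (95% interval -0.34 to 0.31). Myc was at 34.7, 32.2 and 48.2 TPM in Re and 38, 35.1 and 39.7 TPM in DMSO, differing by 0.01 on the log2(TPM + 1) scale (95% interval -0.34 to 0.36). Re replicate 3 held the highest Myc value and the other Re libraries lay below every DMSO library, so that without Re replicate 3 the Myc difference was -0.16. A p over the threshold does not show that these genes were alike in Re and DMSO, and the intervals bound what these libraries can show.

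**Figure D2:**
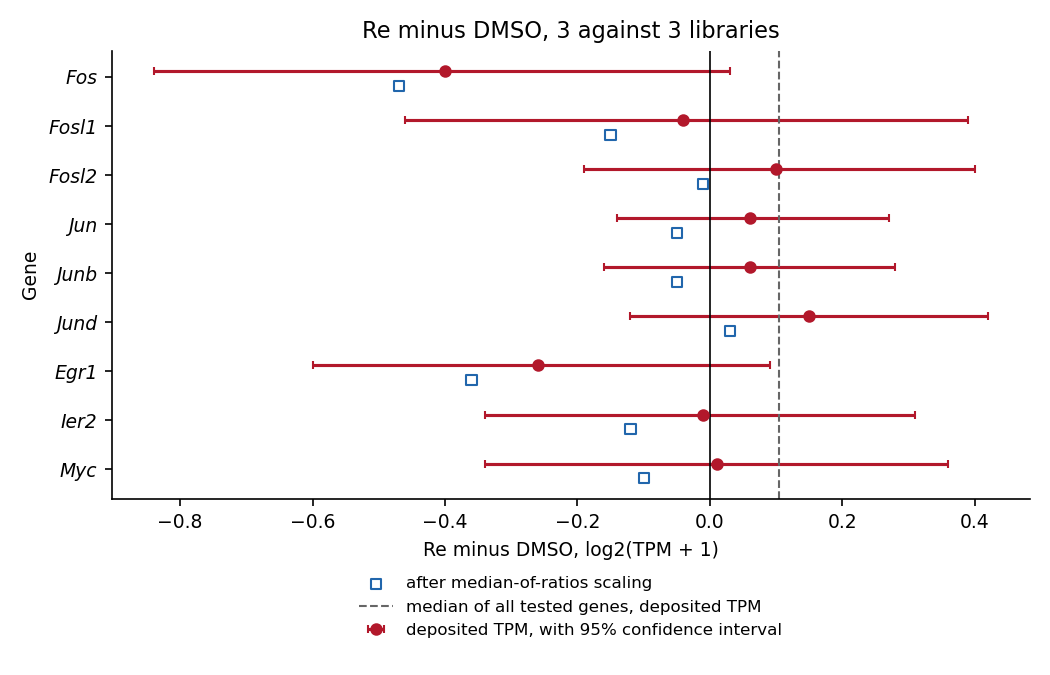
Re minus DMSO on the log2(TPM + 1) scale for the 9 tested genes: filled circles with 95% confidence intervals from limma on deposited TPM, open squares after median-of-ratios scaling, and a dashed line at the median of all tested genes, 0.105. Every interval crosses 0, and Fos at -0.40 and Egr1 at -0.26 lie farthest to the left.

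Of the 9 tested members 5 were higher and 4 lower in Re, with a median difference of 0.0088 beside 0.105 over all tested genes, and 8 of the 9 lay below that median of all genes. After median-of-ratios scaling 1 was higher, Jund at 0.03, and 8 lower, with a median of -0.10, beside 49.7% of all genes higher. The directions of Fosl2, Jun, Junb and Myc were positive as deposited and negative after scaling. Single libraries also ordered the genes. DMSO replicate 2, the library with the lowest sum of listed TPM, held the lowest DMSO value for 9 of the 10 genes as deposited, Fos being highest there, and for 5 of the 10 after scaling. Re replicate 3, the library with the highest sum, held the highest Re value for 7 of the 10 on both scales. The part of the sums in these orders was not tested.

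**Figure D3:**
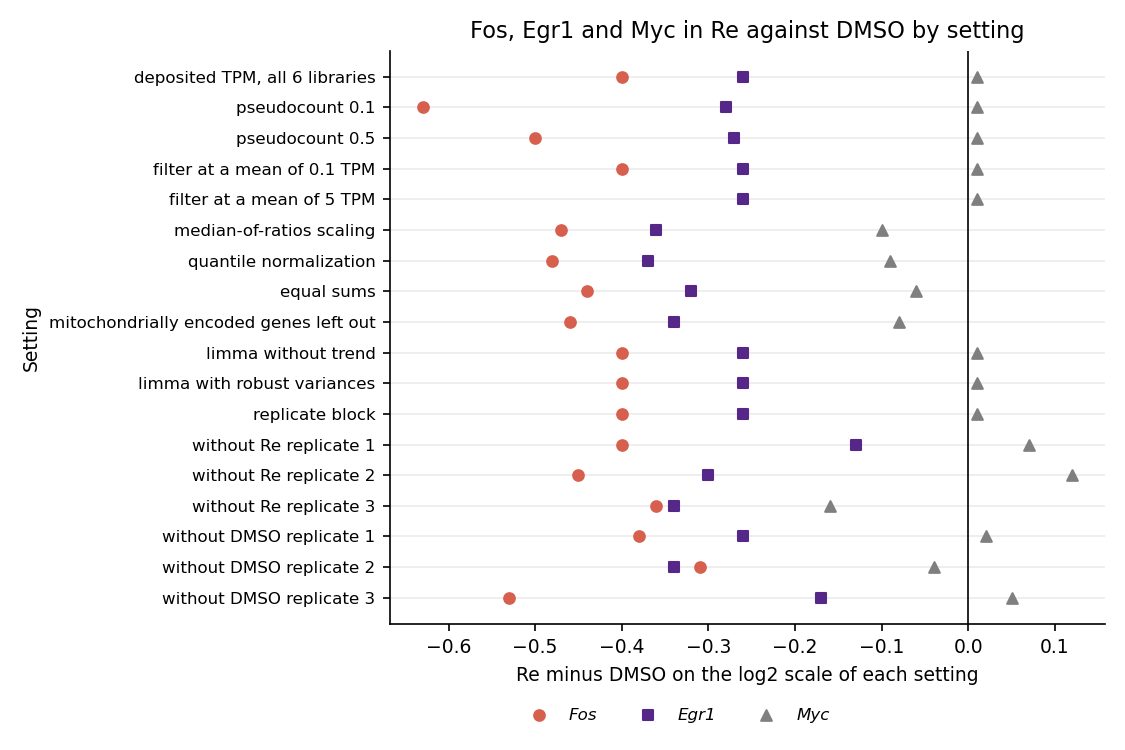
Re minus DMSO of Fos, Egr1 and Myc under each processing setting, with differences on the log2 scale of that setting. Fos runs from -0.63 to -0.31 and Egr1 from -0.37 to -0.13, all below 0, while Myc lies on both sides of 0, from -0.16 to 0.12.

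Shares within a family do not depend on a scaling of the whole library. The Fos family of 4 genes summed to 53.7 ± 8.76 TPM in Re and 53.2 ± 7.10 TPM in DMSO (SD, n = 3 each), and Fosl1 made up 51.3% to 59.6% of it in Re and 55.7% to 60.0% in DMSO. Fosl2 held 37.9% to 45.2% in Re and 36.4% to 40.1% in DMSO. Fos itself was 2.53%, 2.34% and 1.64% of the family in Re, against 3.37%, 4.98% and 2.42% in DMSO, so that the lowest DMSO share lay below the highest Re share. The Jun family of 3 genes summed to 187 ± 6.72 TPM in Re and 177 ± 15.5 TPM in DMSO. Junb held 46.2% to 49.8% of it in Re and 48.5% to 51.1% in DMSO, and Jund 29.4% to 31.7% and 27.5% to 30.8%.

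In the GBC table the share of Fosl1 was larger, at 76.2% in GBC and 74.6% in DMSO, and that of Fosl2 smaller, at 22.4% and 21.4%. Fos held 0.996% of the family in GBC and 2.64% in DMSO. In the Jun family Jund held 22.3% in GBC and 28.9% in DMSO, and Jun 33.8% and 28.7%. The shares of the tables are set side by side as descriptions, since the tables also differ in cell markers and in listed sums.

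**Figure D4:**
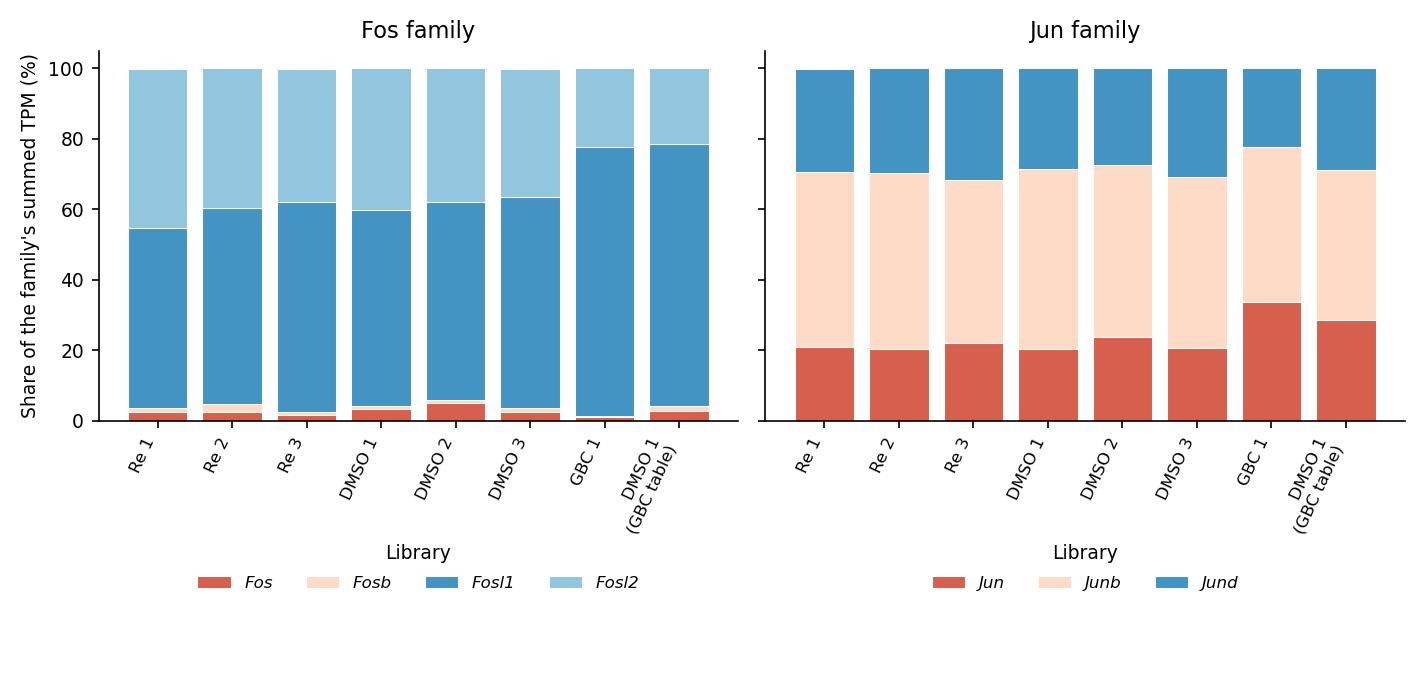
Share of the summed TPM of the Fos family (left) and of the Jun family (right) held by each gene in each of the 8 libraries, in percent. Fosl1 and Fosl2 fill most of the Fos family in every library, with Fosl1 at 51.3% to 60.0% in the Re table and 74.6% to 76.2% in the GBC table.

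GBC against DMSO has 1 library a side, so there is no test and no error, and the values describe those libraries. Genes were counted where the pair averaged 5 TPM or more and differed by 1 or more on the log2(TPM + 1) scale. Of the 6 members at that level 0 passed this rule, while 5.21% of 6639 genes did, 4.97% higher and 0.241% lower in GBC. The whole GBC library stood higher, with a median difference of 0.307 over those genes and 88.9% of them higher. The 6 members had a median of 0.572, with 5 higher and 1 lower. Fibroblast markers differed in the same pair, as in the sums of that list given above. Of the 6 at 1 TPM or more 5 were higher, beside 88.8% of all genes at that level. Col1a1 had the largest difference, at 46.6 TPM in GBC and 10.9 TPM in DMSO. Thy1 was lower in GBC, at 22.1 TPM against 23.8 TPM, and Dcn and Lum were near 0. The part of the fibroblast markers in the members' values was not tested.

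The Fra genes stood out in size. Fosl1 was at 26.8 TPM in GBC and 13.0 TPM in DMSO, a ratio of 2.06 and a difference of 0.99, just under the rule, and 94.7% of the genes counted had a smaller difference. Fosl2 was at 7.86 TPM in GBC and 3.74 TPM in DMSO, a ratio of 2.10 and a difference of 0.90, above 93.2% of the genes. With a pseudocount of 0.1 both passed the rule, as did 6.84% of all genes counted, and after median-of-ratios scaling they stood at 0.62 and 0.58.

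The Jun genes spread around the shift of the whole library. Jun was at 15.6 TPM in GBC and 10.6 TPM in DMSO, a difference of 0.52, and Junb at 20.2 and 15.6 TPM, a difference of 0.36. Jund was at 10.3 TPM in GBC and 10.6 TPM in DMSO, a difference of -0.04, and only 8.24% of the genes had a smaller one. After scaling Jun stood at 0.16, Junb at -0.01 and Jund at -0.40.

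Myc was at 20.2 TPM in GBC and 12.8 TPM in DMSO, a difference of 0.62, or 0.26 after scaling. The other 4 genes lay under 5 TPM in the pair. Ier2 was at 4.52 TPM in GBC and 2.39 TPM in DMSO, a difference of 0.70. Egr1 was at 0.83 and 0.42 TPM, Fos at 0.35 and 0.46 TPM and Fosb at 0.14 and 0.24 TPM, levels at which no ratio is read here, since the depth is unknown.

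**Figure D5:**
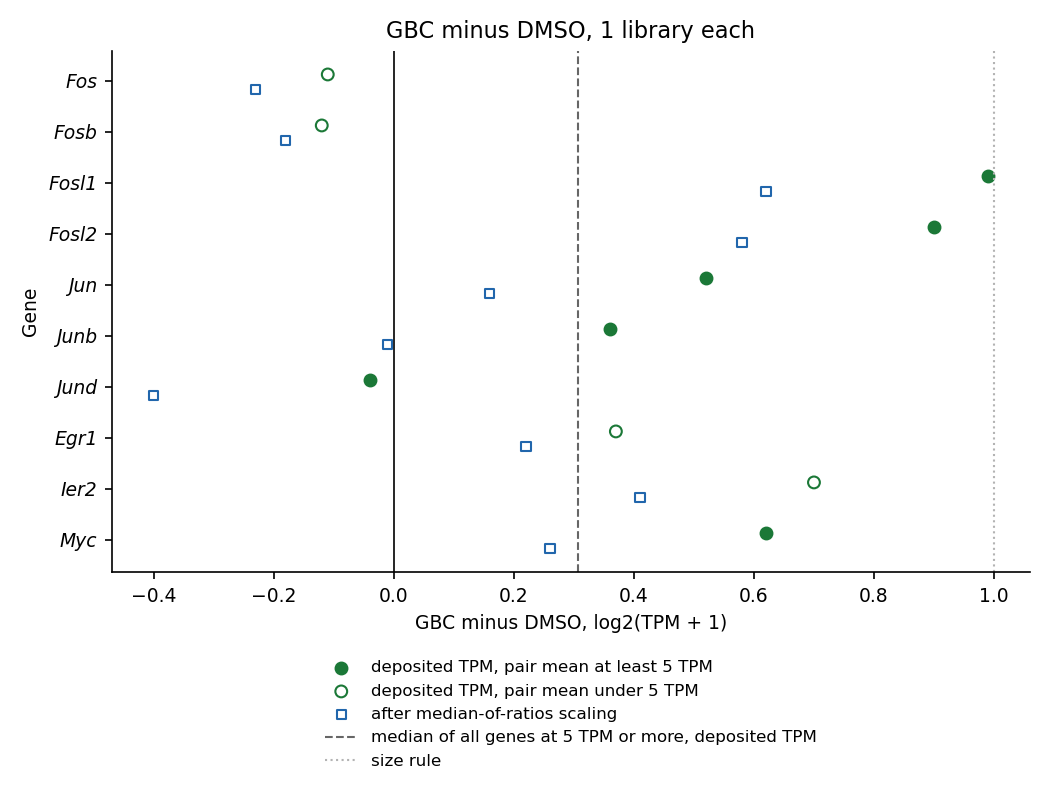
GBC minus DMSO on the log2(TPM + 1) scale for the 10 genes, 1 library each: circles for deposited TPM, open where the pair mean is under 5 TPM, and squares after median-of-ratios scaling. The dashed line marks the median of all genes counted, 0.307, and the dotted line the size rule of 1, which Fosl1 at 0.99 nearly reaches.

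Genes around these factors were read from lists chosen for their roles. Among 24 bZIP partners and antagonists of AP-1, 19 were tested in Re against DMSO. Of these 14 were higher, 5 lower and 0 called, beside 77.5% of all tested genes higher. Their median was 0.0481, beside 0.105 over all tested genes, and it was -0.0627 after median-of-ratios scaling. Atf3, a stress-induced bZIP factor, was at 6.04 ± 1.04 TPM in Re and 4.40 ± 0.210 TPM in DMSO (SD, n = 3 each), a difference of 0.37 with an adjusted p of 0.687 in limma. Jdp2, a repressor that pairs with Jun, differed by 0.20, Atf4 by 0.16 and Atf1 by 0.24. After scaling Atf3, Jdp2, Atf4 and Atf1 stood at 0.27, 0.09, 0.05 and 0.13. In the GBC pair 14 of 16 bZIP genes were higher, beside 88.8% of all genes at 1 TPM or more. Their median was 0.293, beside 0.32 over all those genes, and it was -0.0458 after scaling. Atf7 was at 14.9 TPM in GBC and 7.01 TPM in DMSO.

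Other immediate early genes numbered 36, of which 34 were tested. In Re 24 were higher and 10 lower, with 0 called, beside 77.5% of all tested genes higher. Their median was 0.0864, beside 0.105 over all tested genes. Nab1, which encodes a corepressor of Egr1, was at 29.6 ± 1.01 TPM in Re and 26.3 ± 0.877 TPM in DMSO (SD, n = 3 each), a difference of 0.17. Phlda1 was at 33.6 ± 4.27 TPM in Re and 39.8 ± 4.76 TPM in DMSO, a difference of -0.24, and Mcl1, an anti-apoptotic protein, and Klf4, a zinc finger factor, differed by 0.15 and 0.25. In the GBC pair 25 of 27 were higher, beside 88.8% of all genes at 1 TPM or more. Their median was 0.453, beside 0.32 over all those genes, and it was 0.0889 after median-of-ratios scaling. At 5 TPM or more 1 of 19 passed the size rule, beside 5.21% of all genes counted. That was Zfp36l2, which encodes a protein that speeds the decay of AU-rich mRNAs such as those of early genes. Zfp36l2 was at 19.9 TPM in GBC and 7.13 TPM in DMSO, a difference of 1.36, or 1.01 after median-of-ratios scaling.

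Of the kinase cascades that switch these genes on, 29 of 30 genes from Ras to SRF and ELK were tested. In Re 20 were higher and 9 lower, with 0 called, beside 77.5% of all tested genes higher. Their median was 0.066, beside 0.105 over all tested genes. Nras differed by 0.30. Mapk3, which encodes ERK1, was at 28.3 ± 1.45 TPM in Re and 31.9 ± 1.76 TPM in DMSO (SD, n = 3 each). The difference of Mapk3 was -0.17, and all its Re values lay below all its DMSO values. It was the only 1 of the 29 separated, beside 1.27% of all tested genes separated downward in Re and 13.7% upward. Among bZIP genes, other immediate early genes, Myc targets and AP-1 targets, 3, 2, 2 and 1 genes were separated upward. In the first 2 of these lists 1 gene each was separated downward. In the GBC pair all 29 with a mean of at least 1 TPM were higher, beside 88.8% of all genes at that level, with a median of 0.404 that became 0.0613 after scaling. Map2k3 and Mapk14, which encode MKK3 and p38 alpha of 1 pathway, were at 26.5 and 13.3 TPM in GBC and at 11.7 and 5.76 TPM in DMSO. With Mrtfa, a cofactor of SRF, they were the 3 of 20 genes past the size rule, beside 5.21% of all genes counted. After median-of-ratios scaling Map2k3, Mapk14 and Mrtfa stood at 0.75, 0.73 and 0.67, under the rule. Feedback inhibitors, the DUSP phosphatases and the Sprouty and Spred proteins, had 12 of 17 higher in Re with 0 called, beside 77.5% of all tested genes. In GBC 10 of 12 were higher, beside 88.8% of all genes at 1 TPM or more, and none of 6 passed the rule.

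Over all tested genes 77.5% were higher in Re, with a median of 0.105, and in GBC 88.8% of genes at 1 TPM or more were higher. The partners and antagonists of Myc had 13 of 16 higher in Re with 0 called and a median of 0.0789. In GBC 12 of 14 were higher, with 1 of 7 past the rule. Textbook Myc targets had 17 of 24 higher in Re with 0 called, and a median of 0.0835. Odc1, the first enzyme of polyamine synthesis, was at 170.1 ± 6.28 TPM in Re and 151 ± 11.3 TPM in DMSO, and Eif4e, which binds the mRNA cap, differed by 0.21. In the GBC pair 24 of 25 Myc targets were higher, with a median of 0.554 beside 0.32 over all genes at 1 TPM or more, or 0.188 after scaling, and 3 of 24 passed the size rule. These were Nolc1, a nucleolar protein, at 40.3 TPM in GBC and 14.1 TPM in DMSO, Ncl, nucleolin, at 64.1 and 30.3 TPM, and Odc1 at 66.5 and 32.2 TPM. The partner past the rule was Trrap, a cofactor that Myc recruits, at 22.0 TPM in GBC and 8.83 TPM in DMSO. The rule was passed by 5.21% of all genes counted. After scaling Nolc1 stood at 1.08, while Ncl at 0.68, Odc1 at 0.64 and Trrap at 0.86 fell under the rule. Textbook AP-1 targets had 10 of 15 higher in Re with 0 called, where Sphk1, sphingosine kinase 1, was at 7.51 ± 0.947 TPM in Re and 5.35 ± 0.935 TPM in DMSO (SD, n = 3 each), a difference of 0.43 with an adjusted p of 0.687 in limma. In GBC 12 of 13 were higher, and none of 9 passed the rule. Of the 154 genes tested over these 7 lists 3, Atf3, Nras and Sphk1, had an unadjusted p under 0.05 in limma, each higher in Re. That is 1.95%, below the 6.23% of all tested genes. After scaling, the medians of these 7 lists in Re lay between -0.0627 and -0.00275.

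Genes whose levels followed those of a member over the 6 libraries of the Re table were found by Pearson's r of log2(TPM + 1) among 8685 named genes at 5 TPM or more. For Fos these were Cnpy2 (r = 0.971), Mllt10 (r = 0.960) and Man2b2 (r = 0.955), which was at 4.39 to 5.08 TPM in Re and 5.84 to 8.09 TPM in DMSO. For Jun they were Ndc1 (r = 0.994), Magi1 (r = 0.992) and Ncoa2 (r = 0.990), and for Myc Ash1l (r = 0.996), Stac2 (r = 0.993) and Smn1 (r = 0.992). Jun was at 42.9 TPM in Re replicate 3 and at 37.5 to 38.5 TPM in the other libraries, so its r values rest mainly on that library. Myc was also highest there, at 48.2 TPM. With only 6 libraries, whose listed sums differ, and 8685 genes searched, such r values are a description only.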

How the data were processed

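RNA sequencing values of 8 libraries were read from 2 tables. Per the labels' protocols, RNA was purified on columns and made into TruSeq libraries; per the submitters' processing notes, STAR and RSEM were used, with the builds GRCh38 and GRCm39, in roles that the notes do not state. The deposited values are log2 of TPM + 1 per Ensembl gene. They were turned back to TPM, in steps of 0.01 within 2.0e-04.

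Re and DMSO were compared with limma 3.58.1 in R 4.3.3 (lmFit and eBayes with trend, two-sided, 3 against 3) over 11967 genes averaging 1 TPM or more. The fit was also run on simulated data with independent noise for each gene and no shift of whole libraries, unlike the deposited values. The GBC pair has no test: differences of 1 or more were counted among genes averaging 5 TPM or more. Lists are described by counts and medians. Tables were never tested together. Other steps used Python 3.11.15 with pandas 2.3.3 and numpy 2.4.6, and figures matplotlib 3.10.9. The alternatives were other pseudocounts, filters, scalings and limma options, a replicate number as block, and each library left out in turn.

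All 10 members were named. From each of 7 pathway lists up to 4 genes were eligible per comparison, by smallest p for Re and by largest difference for GBC, and some are left out of the text. For likeness, 3 genes each were taken for Fos, Jun and Myc. Marker values were chosen after they were seen. Members and lists were chosen with earlier results of these data known. Promoter windows come from RefSeq on GRCm38.p6, while the notes name GRCm39.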

Additional observations from a re-analysis of the deposited data

How the results depend on the processing

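The signs of Fos, Egr1 and Jund in Re against DMSO held under each alternative that gave a value, from -0.63 to -0.31, -0.37 to -0.13 and 0.03 to 0.22, and no member was called under any. Filters, limma options and the replicate block leave a difference as it is, so only pseudocounts, scalings and left-out libraries could turn a sign. Signs of other members turned. After median-of-ratios scaling Fosl2 was -0.01, Jun -0.05, Junb -0.05 and Myc -0.10, after quantile normalization Jun was -0.04, Junb -0.05 and Myc -0.09, with equal sums Jun was 0.00, Junb -0.01 and Myc -0.06, and without mitochondrially encoded genes, rescaled, Jun was -0.03, Junb -0.03 and Myc -0.08. Leaving out 1 library, Fosl1 ran from -0.19 to 0.14, Fosl2 from -0.01 to 0.19, Junb from -0.02 to 0.12, Ier2 from -0.11 to 0.11 and Myc from -0.16 to 0.12. In GBC against DMSO Junb was -0.01 after median-of-ratios scaling. The cause was not tested.

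Members whose groups did not overlap numbered 2, Fos and Egr1, under each of those 4 scalings, beside 10.2% to 11.4% of all genes, 0 with a filter at 5 TPM, where Fos is not tested, beside 15.6%, and 1 to 3 leaving out 1 library, beside 21.7% to 37.2%. Without DMSO replicate 2 they were Fos and Egr1, without Re replicate 3 Fos, Egr1 and Myc, and without Re replicate 1 Fos and, higher, Jun, and the share of all genes without overlap was then 21.7%, 24.5% and 26.4%. Over all genes limma called 0 to 7 leaving out 1 library. Genes past the size rule in GBC numbered 123 after median-of-ratios scaling, 126 after quantile normalization, 177 with equal sums, 184 without mitochondrially encoded genes, 522 with a filter at 1 TPM and 101 at 20 TPM, beside 346 as deposited. Titles share replicate numbers, while the descriptions number the Re libraries differently. Deviations of same-numbered libraries correlated at 0.16, 0.08 and 0.02, and those of differently numbered ones at -0.17 to 0.09. With 3 libraries a group these values cannot decide whether the numbers pair the libraries. With a replicate block limma called 0 genes, with 810 at an unadjusted p under 0.05 beside 745, and Fos had an adjusted p of 0.663. The unknown depth limits what the levels of Fos and Fosb can show.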
